A study of Mus musculus with 8 samples.

Results

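The transcripts described here encode the machinery that displays cytosolic peptides on the cell surface, from peptide production to the class I molecule itself. They are 10 genes chosen by name, of 26667 in the deposited count table: the class I heavy chains H2-K1, H2-D1 and H2-T23, the light chain B2m, the peptide transporter and loading genes Tap1, Tap2 and Tapbp, the immunoproteasome subunits Psmb8 and Psmb9, and the transactivator Nlrc5. All 10 passed the filter on low counts and were among the 12507 genes tested. The libraries were made from poly(A) RNA of bone-marrow-derived macrophages, which are cells grown out of mouse marrow under the growth factor M-CSF. There were 4 WT libraries and 4 Dnmt3a KO libraries, all of strain C57BL/6. All cultures received 30 ng/ml M-CSF and 10% serum, no stimulus is named, and cells were taken at day 8 to 10. The comparison asks what the loss of Dnmt3a, an enzyme that adds new methyl groups to DNA, does to transcripts of macrophages.

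Most cells cut worn or foreign proteins with the proteasome, and the peptides are pumped into the endoplasmic reticulum by the TAP transporter, where tapasin helps to fit them into class I molecules. Cytotoxic T cells and natural killer cells read the result at the surface. In macrophages the set is expressed at rest and is induced further by interferons, partly through Nlrc5, a nuclear regulator that acts on class I promoters.

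Library totals ran from 12614006 to 28502631 counts. How the Dnmt3a allele was made, when it was lost, and whether each library is a mouse of its own are not in the labels, so a p-value here reflects only library-to-library spread, which may be technical. WT libraries are numbered 1 to 4 and KO libraries 9 to 12, so library order and genotype cannot be told apart. The level of Dnmt3a was 161 ± 10.0 CPM in the WT libraries and 34.4 ± 3.70 CPM in the KO libraries (SD, n = 4 each; CPM is the count scaled to a common library size, with TMM factors). The 7 macrophage markers listed (Csf1r, Adgre1, Cd68, Lyz2, Mertk, Itgam and Fcgr1) were all detected, with 0 called as higher and 0 as lower in KO. Their summed level was 9583 to 10521 CPM in WT and 10423 to 13893 CPM in KO, and the mean of Lyz2, the most abundant, was 5619 CPM in WT and 7698 CPM in KO. WT replicate 1 stood apart from the other 7 libraries on the first principal component (score -59.3 against -8.04 to 26.3, with 49.1% of the variance). In that library the median deviation from the gene mean was -0.46 log2 units over the 2485 genes with the lowest GC content (the lowest quartile) and 0.43 over the 2485 with the highest. In the other 7 libraries these medians lay between -0.03 and 0.21 and between -0.24 and 0.04. Results that rest on WT replicate 1 are therefore given with and without it.

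None of the 10 genes passed the test between genotypes. The count was 0 by the edgeR quasi-likelihood test at a Benjamini-Hochberg adjusted p under 0.05, and also 0 by DESeq2 and by limma-voom. Over all genes tested, 1.61% were called, 1.22% as higher and 0.392% as lower in KO. At an unadjusted p under 0.05 the edgeR test took 3 members as higher in KO (H2-T23, Tap1 and Tapbp) and 0 as lower, where all tested genes gave 6.82% and 5.84%. The median log2 fold change of the members was 0.04, with 5 of 10 above 0, against -0.02 over all tested genes. In the authors' deposited table, too, 0 of the 10 had an adjusted p under 0.05, with 0.113 as the lowest. Fewer cells that carry a transcript and less RNA per cell cannot be told apart in such bulk libraries.

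**Figure D1:**
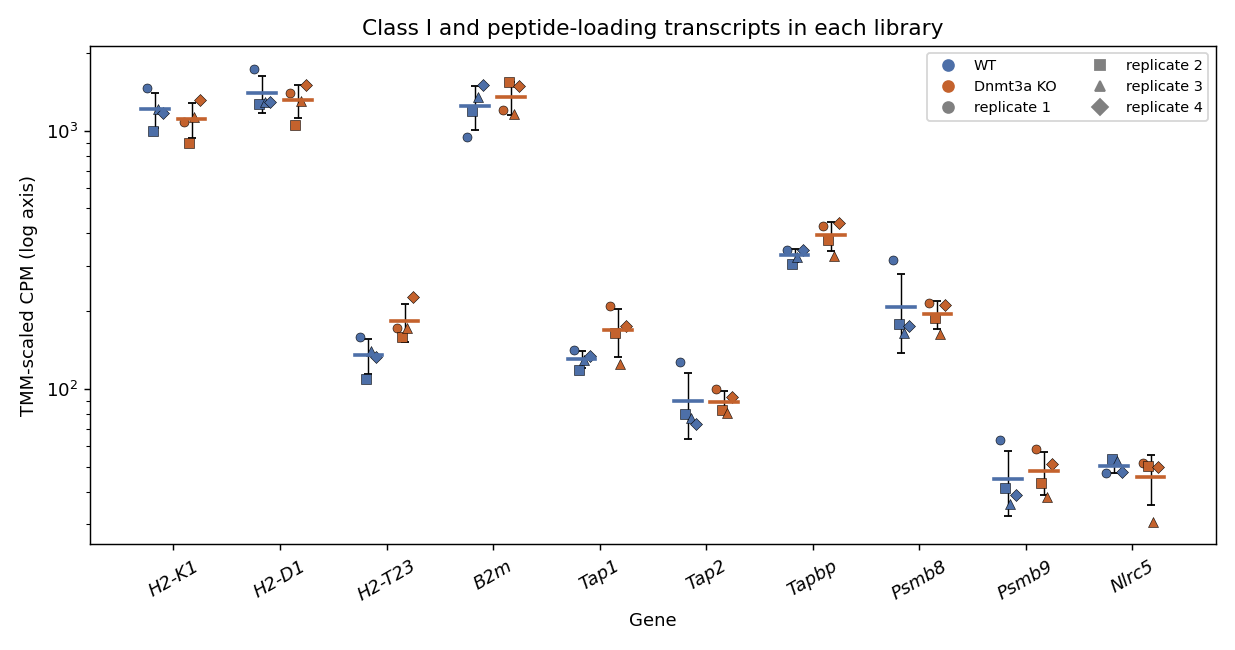
Level of each of the 10 transcripts in each library, as TMM-scaled CPM on a log axis. Points are libraries, with the marker shape giving the replicate number, thick bars are group means and thin error bars are the SD (n = 4). The groups overlap for all genes but H2-T23, and WT replicate 1 is the highest of all 8 libraries for H2-K1, H2-D1, Tap2, Psmb8 and Psmb9.

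The classical heavy chains and the light chain were the most abundant members and showed no called difference. Per kilobase of the longest coding transcript, B2m was at 1449 ± 278 CPM per kb in WT, H2-K1 at 747 ± 116 and H2-D1 at 665 ± 109 (SD, n = 4 each). Across libraries the H2-K1 and H2-D1 ranges overlapped, but within each of the 8 libraries H2-K1 was above H2-D1 per kilobase, by as little as 670 against 665 CPM per kb in KO replicate 1. In CPM not divided by length, H2-D1 was above H2-K1 in every library. The order per kilobase thus rests on the transcript lengths used, 1619 bases for H2-K1 and 2102 for H2-D1. All GENCODE exons together cover 2938 and 2579 bases, the other way round. The lowest B2m value (1097 CPM per kb) lay above the highest of H2-K1 (900.4 CPM per kb). The nonclassical chain H2-T23 was much lower, at 92.0 ± 14.0 CPM per kb.

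H2-K1, one of the chains that present peptides to cytotoxic T cells, was at 1458, 1002, 1209.7 and 1168 CPM in WT replicates 1 to 4 and at 1085, 898, 1134 and 1311 CPM in KO replicates 1 to 4. H2-D1, the other classical chain in this strain, was at 1741, 1269, 1292 and 1293 CPM in WT and 1398, 1049, 1309 and 1498 CPM in KO. For both genes the highest library was WT replicate 1, the lowest was KO replicate 2, and the groups overlapped. The log2 fold change of KO over WT was -0.13 ± 0.14 for H2-K1 (SE; 95% interval -0.43 to 0.18; edgeR adjusted p 0.755). For H2-D1 it was -0.09 ± 0.14 (-0.40 to 0.21; edgeR adjusted p 0.834). Without WT replicate 1 the 2 values were -0.02 and 0.04.

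B2m, the light chain that every class I heavy chain needs to fold, went the other way between libraries. It was at 944, 1188, 1350.3 and 1502 CPM in WT and at 1199, 1539.9, 1166 and 1493 CPM in KO, so WT replicate 1 was the lowest of all 8. Its log2 fold change was 0.11 ± 0.15 (SE; 95% interval -0.22 to 0.45; edgeR adjusted p 0.799), and 0.01 without WT replicate 1. B2m has the lowest GC content of the members, 41.2% of its longest coding transcript, where the other 9 have 52.6% to 57.3%. The part of base composition in the B2m and heavy-chain values of WT replicate 1 was not tested gene by gene. With each library's trend on length and GC content removed, the log2 fold change of B2m was -0.07 and that of H2-D1 -0.03.

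H2-T23 came closest to a difference. It encodes the nonclassical molecule Qa-1, which natural killer cells read through the receptor pair CD94 and NKG2A. Its level was 159, 109, 141 and 133 CPM in WT and 171.7, 158.8, 173 and 227 CPM in KO. The lowest KO library, replicate 2, lay just above the highest WT library, replicate 1 (158.755 against 158.661 CPM), so the groups were separated only at the margin. Over all genes tested 5.13% had every KO library above every WT library, and H2-T23 was the only member among them. No member had every KO library below every WT library, as 4.28% of all genes did. The mean went from 135 ± 20.6 to 183 ± 30.3 CPM (SD, n = 4 each), 1.35-fold, with a log2 fold change of 0.43 ± 0.14 (SE; 95% interval 0.12 to 0.74; edgeR adjusted p 0.198). Without WT replicate 1 H2-T23 was called, at a log2 fold change of 0.52 and an edgeR adjusted p of 0.0270. That fit called 2.69% of 12672 genes higher and 1.13% lower. Leaving out the highest WT library of a gene lowers its WT mean, so this call adds no support. H2-T23 was also called with the length and GC trends removed (0.45, edgeR adjusted p 0.0481, where 2.73% of genes were called higher and 1.04% lower). Leaving out any other single library gave no call for H2-T23.

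The sequences just upstream of the chain genes show which of them share a layout. The 250 bases before the RefSeq start of each gene are given 5′ to 3′ on the gene's strand (GRCm38.p6), for H2-K1 at chr17:34000348-34000597 (minus), H2-D1 at chr17:35262844-35263093 (plus), H2-T23 at chr17:36032702-36032951 (minus) and B2m at chr2:122147437-122147686 (plus). Capitals mark matches on either strand to the interferon-response element core in either order (GAAANNGAA or GAANNGAAA, which can overlap), the interferon-gamma element TTCNNNGAA, the CCAAT box ATTGG, the cyclic AMP element half-site TGACG and the NF-kB motif GGGATTCC.
H2-K1: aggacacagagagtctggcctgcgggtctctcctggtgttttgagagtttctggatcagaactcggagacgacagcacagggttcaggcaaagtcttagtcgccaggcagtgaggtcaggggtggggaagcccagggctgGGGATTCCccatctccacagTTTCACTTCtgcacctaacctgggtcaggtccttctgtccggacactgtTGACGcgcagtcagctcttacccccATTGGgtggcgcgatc
H2-D1: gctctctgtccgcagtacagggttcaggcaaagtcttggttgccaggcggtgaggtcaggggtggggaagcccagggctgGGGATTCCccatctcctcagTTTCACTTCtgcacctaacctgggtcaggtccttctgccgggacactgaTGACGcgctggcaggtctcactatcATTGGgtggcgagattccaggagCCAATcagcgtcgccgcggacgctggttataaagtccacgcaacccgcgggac
H2-T23: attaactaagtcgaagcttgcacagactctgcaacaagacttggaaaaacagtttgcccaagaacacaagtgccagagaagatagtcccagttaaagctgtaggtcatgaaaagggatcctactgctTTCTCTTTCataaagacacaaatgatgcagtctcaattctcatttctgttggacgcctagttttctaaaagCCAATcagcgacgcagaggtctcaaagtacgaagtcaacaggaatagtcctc
B2m: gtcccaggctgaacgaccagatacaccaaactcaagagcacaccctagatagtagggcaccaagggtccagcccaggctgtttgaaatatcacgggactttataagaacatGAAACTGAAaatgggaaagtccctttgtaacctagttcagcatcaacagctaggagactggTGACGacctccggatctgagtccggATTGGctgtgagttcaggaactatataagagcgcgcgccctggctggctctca

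H2-K1 and H2-D1 hold the NF-kB motif inside a stretch of 47 identical bases, which begins 141 bases before the start of H2-K1 and 201 before that of H2-D1. These distances rest on the RefSeq starts, and for H2-K1 the first of 2 entries was used. By GENCODE the H2-D1 gene begins at 35262730, so its printed sequence lies within the gene. That of H2-T23 does so in part, with the gene reaching to 36032855. In all, 31.8% of the 12-base words of the H2-K1 sequence also occur in that of H2-D1, and 0% in that of H2-T23 or B2m. All 4 sequences hold an interferon-response core, H2-K1 and H2-D1 in the order GAANNGAAA and H2-T23 and B2m in the order GAAANNGAA. Of 32841 promoters of the same length, 0.889% hold the NF-kB motif, 12.5% the interferon-response core in either order, 17.8% the half-site and 33.9% the CCAAT box. All 4 sequences hold a CCAAT box and all but that of H2-T23 the half-site. They hold 9, 14, 5 and 8 CG pairs in the order printed, where the median over all promoters is 6 and the upper quartile 16. A match is a description of letters and not a bound site.

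The chains are also alike within the transcript, which bears on how reads could be assigned. Of all 50-base words of the longest coding transcript, 8.79% of H2-K1, 14.3% of H2-D1 and 28.8% of H2-T23 occur in a transcript of another gene (GENCODE M21). For 100-base words these shares were 0%, 4.64% and 7.28%. Of 50-base words, H2-K1 shared most with H2-D1, H2-D1 with H2-Q1, and H2-T23 with H2-T-ps. Of 100-base words, H2-D1 shared most with H2-Q1 and H2-T23 with Gm7030. How reads that fit several places were counted is not given in the sources used here, so the values of these 3 genes are uncertain to that extent. B2m shared no word of either length.

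Among the transport and loading genes, the values of Tap1 and Tapbp were higher in KO on average and those of Tap2 were not, with no call for any of them. Tap1 and Tap2 encode the partner chains of the transporter, and Tapbp encodes tapasin, which bridges the transporter and the empty class I molecule. Tap1 was at 142, 118, 129 and 134 CPM in WT and at 210.4, 165, 125 and 175 CPM in KO. KO replicate 3 lay inside the WT range and the other 3 KO libraries above it. The log2 fold change was 0.37 ± 0.14 (SE; 95% interval 0.05 to 0.68; edgeR adjusted p 0.296), 1.29-fold. Tapbp was at 344, 306, 325 and 345 CPM in WT and at 428, 377, 327 and 441 CPM in KO, and KO replicate 3 was again the one inside the WT range. Its log2 fold change was 0.25 ± 0.11 (0.01 to 0.49; edgeR adjusted p 0.373). Tap2 was at 128, 79.8, 77.4 and 73.3 CPM in WT and at 99.7, 82.9, 80.7 and 93.4 CPM in KO. All 4 KO libraries of Tap2 exceeded WT replicates 2 to 4 and lay below WT replicate 1. Its log2 fold change was -0.01 ± 0.17 (-0.38 to 0.37; edgeR adjusted p 0.992) with all libraries and 0.22 without WT replicate 1 (edgeR adjusted p 0.235).

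By their RefSeq starts, Tap1 and Psmb9 lie head to head within 225 bases of each other, so a single stretch lies upstream of both. By GENCODE, Psmb9 reaches to 34187764, past the start of Tap1 at 34187553, so there the stretch lies within the Psmb9 gene. It is printed here on the plus strand, which is the strand of Tap1, from chr17:34187331-34187555 (GRCm38.p6), with the same motifs in capitals.
Psmb9 to Tap1: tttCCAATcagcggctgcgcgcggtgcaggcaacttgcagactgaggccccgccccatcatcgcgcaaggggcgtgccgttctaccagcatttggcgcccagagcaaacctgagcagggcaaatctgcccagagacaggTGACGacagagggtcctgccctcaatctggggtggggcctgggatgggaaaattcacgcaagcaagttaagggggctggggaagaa

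The stretch holds a CCAAT box that begins 8 bases before the RefSeq start of Psmb9 and a half-site that begins 86 bases before that of Tap1. It holds no match to the letters searched for the NF-kB motif or the interferon elements. Only these exact letters were searched, so this does not show that such elements are absent. The patterns of Tap1 and Psmb9 over libraries differed most in WT replicate 1, with deviations from the gene mean of -0.05 and 0.48 log2 units. Psmb9 was highest in WT replicate 1 (63.7 CPM), where Tap1 was at 142 CPM, and Tap1 was highest in KO replicate 1 (210.4 CPM), where Psmb9 was second at 58.6 CPM. From highest to lowest, the KO libraries ran in the order replicate 1, 4, 2 and 3 for both genes. WT replicates 2 to 4 lay below the gene mean for both, though in different orders. GENCODE exons of Tap1 and Psmb9 overlap over 212 bases. Strand is not marked by this library kit, and reads from the overlap cannot be given to either gene with certainty. Other genes' exons cover 29.0% of the exon bases of Tapbp, 18.5% of those of Tap2 and 14.7% of those of Psmb8.

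The immunoproteasome genes showed no called difference either. Psmb8 and Psmb9 encode catalytic subunits that replace the constitutive Psmb5 and Psmb6 and favour peptides that suit class I molecules. Psmb8 was at 315, 179, 165 and 175 CPM in WT and at 215, 189, 163 and 211 CPM in KO. Psmb9 was at 63.7, 41.3, 35.9 and 38.8 CPM in WT and at 58.6, 43.3, 38.3 and 51.4 CPM in KO. In both genes WT replicate 1 was the highest of all 8 libraries and the groups overlapped. The log2 fold change was -0.10 ± 0.20 for Psmb8 (SE; 95% interval -0.53 to 0.33; edgeR adjusted p 0.870) and 0.09 ± 0.19 for Psmb9 (-0.33 to 0.51; edgeR adjusted p 0.879). Without WT replicate 1 these were 0.17 and 0.31, neither called (edgeR adjusted p 0.423 and 0.239).

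Nlrc5 was the least abundant member per length, at 6.63 ± 0.41 CPM per kb in WT. It was at 47.4, 53.3, 52.4 and 47.8 CPM in WT and at 51.5, 50.4, 30.6 and 49.9 CPM in KO. KO replicate 3 was far below the other 7 libraries, which lay between 47.4 and 53.3 CPM. The log2 fold change was -0.14 ± 0.16 (SE; 95% interval -0.48 to 0.20; edgeR adjusted p 0.763) with all libraries and 0.01 without KO replicate 3.

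**Figure D2:**
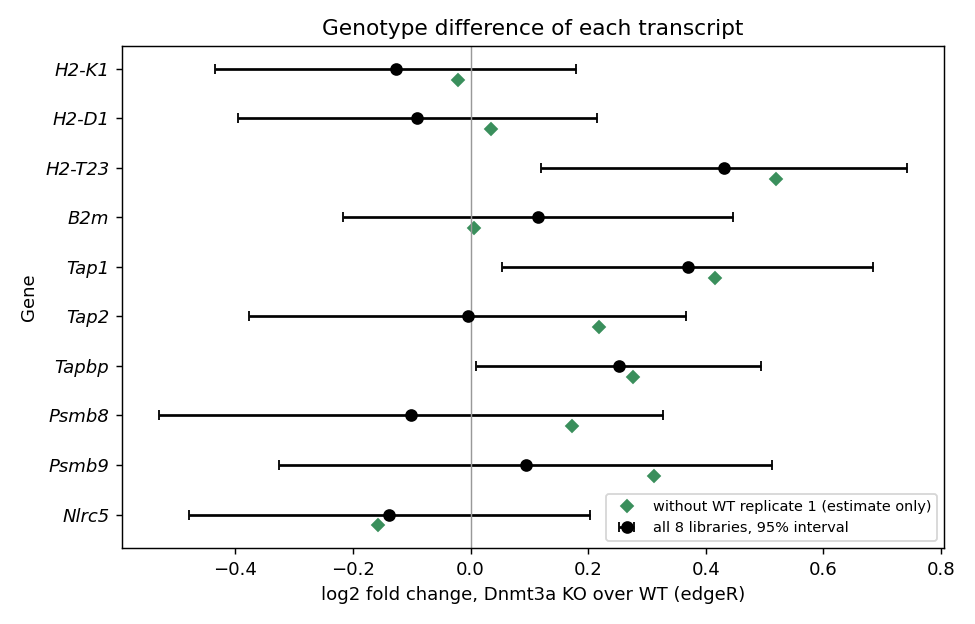
Log2 fold change of KO over WT for each of the 10 genes from the edgeR fit. Circles with bars give the estimate and its 95% interval from all 8 libraries, and diamonds give the estimate without WT replicate 1. The intervals of H2-T23, Tap1 and Tapbp lie above 0 before any adjustment for the number of genes tested, and the largest shifts on leaving the library out are those of Psmb8, Tap2 and Psmb9.

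The same libraries often stood at the ends of their genotype's range. WT replicate 1 was the highest WT library for 7 of the 10 genes and the lowest for 2, B2m and Nlrc5. KO replicate 3 was the lowest KO library for 7 of 10 and the highest for 0. Averaged over the members, the deviation from each gene's mean over 8 libraries was 0.19, -0.17, -0.10 and -0.09 log2 units in WT replicates 1 to 4. It was 0.16, -0.03, -0.17 and 0.21 in KO replicates 1 to 4, so the genotypes overlapped. Without WT replicate 1, 8 of the 10 log2 fold changes were above 0 with a median of 0.20. The median of all 12672 genes tested was 0.0010 and 50.2% were above 0. Leaving out the highest WT library of a gene lowers its WT mean. That library was the highest for 7 of the 10, so the shift adds no support for a rise. With all libraries and the length and GC trends removed, 5 of the 10 were above 0 with a median of 0.06, against a median of -0.03 and 44.2% above 0 over all 12507 genes. H2-T23 was the member called in each of these fits.

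**Figure D3:**
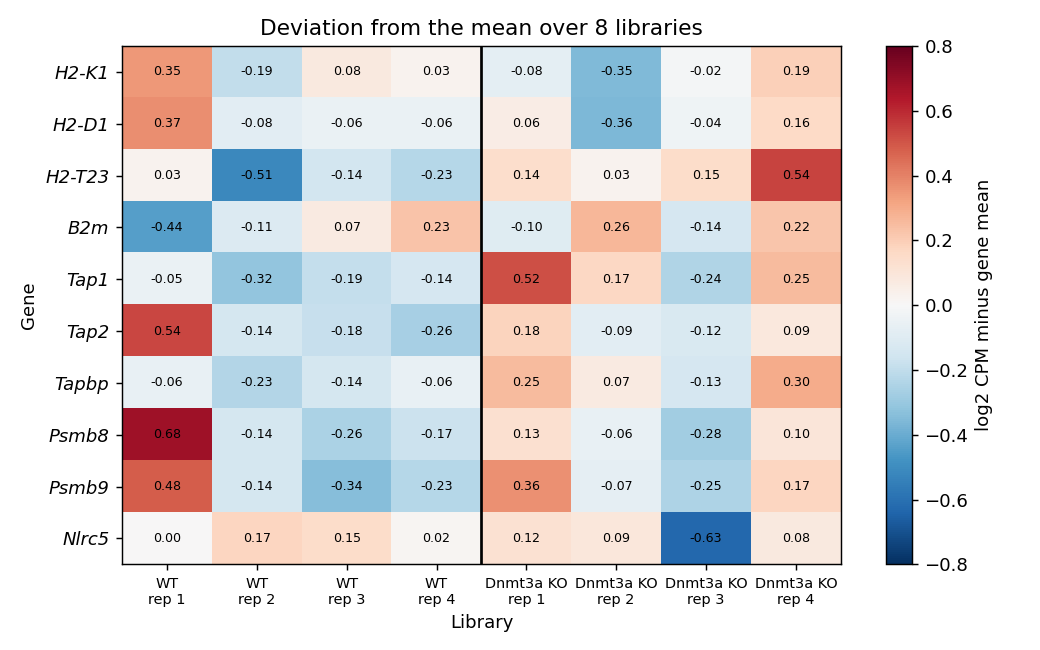
Deviation of each gene from its own mean over the 8 libraries, in log2 CPM, with one row per gene and one column per library. The line parts WT from KO, red is above and blue below the mean. WT replicate 1 shows the highest values for Psmb8, Tap2 and Psmb9 beside a low B2m, and Nlrc5 is lowest in KO replicate 3.

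Ratios of counts within a library do not depend on how libraries are scaled. Of 5 such ratios, 0 passed after adjustment over the 5 by a two-sided exact permutation test (n = 4 against 4), whose smallest p is 0.0286. A ratio that alone separated the genotypes fully could reach only an adjusted p of 0.143, and 3 such ratios would be needed for any to pass, so the count of 0 says little. The ratio of Psmb9 to its constitutive counterpart Psmb6 was 0.161, 0.168, 0.172 and 0.176 in WT and 0.207, 0.194, 0.177 and 0.212 in KO. Every KO library was above every WT library, though KO replicate 3 only by a small margin. The mean log2 ratio went from -2.56 ± 0.06 to -2.34 ± 0.12 (SD, n = 4 each), a difference of 0.22 with an exact permutation p of 0.0286 and an adjusted p of 0.143. In this ratio WT replicate 1, which had the most Psmb9, was the lowest library.

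The ratio of Psmb8 to Psmb5 did not differ detectably, with a mean log2 ratio of 1.31 ± 0.10 in WT and 1.31 ± 0.27 in KO (exact permutation p 0.971). Psmb10, the remaining inducible catalytic subunit, stood at a log2 ratio of -1.06 ± 0.38 to Psmb7 in WT and -0.97 ± 0.18 in KO, a difference of 0.09 that ran from 0.0027 (without WT replicate 2) to 0.27 (without WT replicate 1) over single libraries left out. Heavy chain counts of H2-K1 and H2-D1 together were 3.39, 1.91, 1.85 and 1.64 times those of B2m in WT and 2.07, 1.26, 2.10 and 1.88 times in KO. WT replicate 1 was the highest and KO replicate 2 the lowest. The mean log2 difference of -0.23 (exact permutation p 0.543) ran from -0.35 without WT replicate 4 to -0.0034 without WT replicate 1. Tap1 stood at 1.11, 1.48, 1.67 and 1.82 times Tap2 in WT and 2.11, 1.99, 1.54 and 1.87 times in KO. This was a mean log2 difference of 0.32 (exact permutation p 0.114, adjusted p 0.286), which ran from 0.18 without WT replicate 1 to 0.42 without WT replicate 4.

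**Figure D4:**
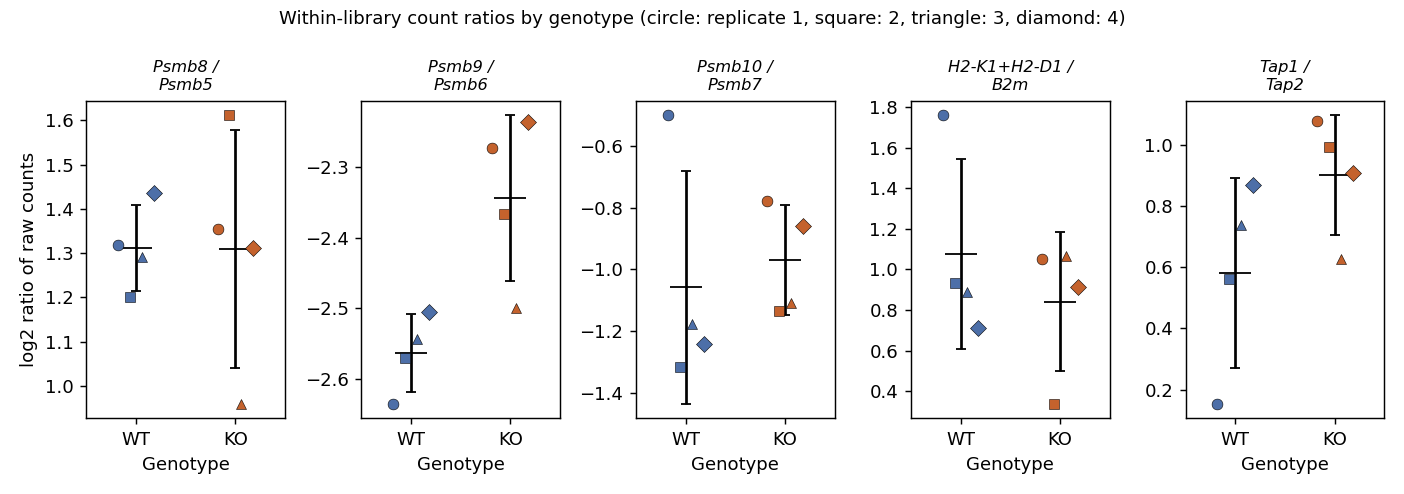
Log2 ratios of raw counts within each library for 5 gene pairs, each panel with its own vertical scale. Points are libraries by replicate number, horizontal marks are means and error bars are the SD (n = 4). Only for Psmb9 to Psmb6 do the KO libraries all lie above the WT libraries.

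The other genes of the pathway, from 5 lists chosen by function, gave a single call, where 1.61% of all genes tested were called. For lists of this size a single call is close to that share, and counts of 0 say little. Of 14 tested genes for other class I and class I-like chains (24 on the list), 0 rose and 0 fell, with a median log2 fold change of 0.03. H2-T24, a nonclassical chain, was at 10.997, 16.1, 15.2 and 19.2 CPM in WT and at 27.4, 30.3, 16.6 and 31.2 CPM in KO (edgeR adjusted p 0.119). H2-T22, a ligand of some gamma-delta T cells, was at 40.5 to 43.7 CPM in WT and 37.6 to 65.7 CPM in KO (edgeR adjusted p 0.233). In both, KO replicate 3 was the lowest KO library and lay inside or below the WT range. Without it, H2-T24 and H2-T22 were called at log2 fold changes of 0.94 and 0.61 (edgeR adjusted p 0.0398 and 0.0235). That fit called 144 genes, 119 of them higher in KO. Leaving out the lowest KO library of a gene raises its KO mean, so these calls add no support. Without WT replicate 1 the log2 fold changes were 0.65 and 0.45, with no call (edgeR adjusted p 0.0641 and 0.129). H2-T24 was also called by DESeq2 (adjusted p 0.0226) and with no filter on low counts.

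Of 11 genes for peptide trimming, chaperones and export, 0 rose and 0 fell, with a median log2 fold change of 0.04. Calr, the chaperone calreticulin, had 716 ± 69.2 CPM in WT libraries and 633 ± 80.2 in KO libraries, and Erap1, which trims peptides in the endoplasmic reticulum, had 102 ± 23.4 and 121 ± 13.3 CPM (SD, n = 4 each). The counts were also 0 and 0 for the 4 inducible proteasome partners (median 0.04) and the 14 constitutive proteasome core genes (median -0.0001). Psmb5, Psmb6 and Psmb7 were at 84.1, 268 and 205 CPM in WT and 78.7, 241 and 205 CPM in KO.

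Among 21 upstream regulators 1 rose and 0 fell, with a median log2 fold change of 0.10. Over all genes tested 1.22% rose and 0.392% fell, with a median of -0.02. The called gene was Irf1, a transcription factor of the interferon response that acts on class I and immunoproteasome promoters. It was at 54.8, 49.2, 50.5 and 48.8 CPM in WT and at 81.1, 69.8, 73.1 and 64.7 CPM in KO, with no overlap. The log2 fold change of Irf1 was 0.51 ± 0.10 (SE; edgeR adjusted p 0.0300), 1.42-fold. Its call was lost on leaving out WT replicate 2, 3 or 4 or KO replicate 1, 2 or 3, with edgeR adjusted p from 0.0754 to 0.113 and log2 fold changes from 0.45 to 0.52. Rfx5, Rfxap and Rfxank, which encode the RFX complex that Nlrc5 works with, had log2 fold changes of 0.05, -0.10 and -0.16.

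Markers of other cells were measured beside these values. Of 8 tested neutrophil and granulocyte precursor markers, among 10 on the list, 4 rose and 0 fell, where 1.22% and 0.392% of all genes tested did. The summed level of the 10 was 221 to 340.3 CPM in WT and 561 to 704 CPM in KO. Most of it came from S100a9, S100a8 and Ngp, with means of 115, 65.5 and 60.7 CPM in WT and 247, 145 and 143 CPM in KO. Retnlg was at 0.630 and 0.632 CPM. The dendritic cell sum (9 markers) was 81.2 to 121 CPM in WT and 107 to 142 CPM in KO, with none of 8 tested called. T and NK cell markers summed to 0.346 to 0.636 CPM in WT and 0.226 to 1.34 CPM in KO. The sums were 3.81 to 7.99 and 2.43 to 9.07 CPM for B and plasma cells, and 5.66 to 10.995 and 11.3 to 18.1 CPM for stromal and endothelial cells. The part of these cells in the class I values was not tested.

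Among the genes whose pattern over the 8 libraries was nearest to the members' mean were Psme1, Tmbim6, Gm6251 and Slc39a1. Nearness is the root mean square difference of centred log2 CPM, which was 0.05, 0.07, 0.07 and 0.07 for them and 0.11 to 0.29 for the members themselves. Of genes outside the members, 162 lay nearer to the mean than Tapbp, the nearest member, and 6881 nearer than B2m, the furthest. Nearness to this mean therefore does not set the members apart. Psme1, a subunit of the proteasome activator, was at 163, 127, 124 and 128 CPM in WT and at 149, 139, 126 and 151 CPM in KO. WT replicate 1 was its highest library and KO replicate 3 its lowest KO library.

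By position, 8 of the 10 genes lie on chromosome 17, between the starts of Tapbp at 33915899 and H2-T23 at 36029773 (GRCm38, GENCODE M21). B2m lies on chromosome 2 from 122147686 to 122153083 and Nlrc5 on chromosome 8 from 94434356 to 94527272. Between these starts on chromosome 17, 89 other genes were tested, of which 3 rose and 0 fell, and their median log2 fold change was -0.13. Over all genes tested 1.22% rose and 0.392% fell, with a median of -0.02. The 3 that rose between these starts were the complement genes C2 (log2 fold change 6.80) and Cfb (1.48) and the cytokine gene Lta (4.02). Their edgeR adjusted p were 8.10e-07, 0.0181 and 5.93e-04. The nearest members on either side of C2, which starts at 34862604, are Tap2, from 34203527 to 34216321, and H2-D1, from 35262730 to 35267499, with log2 fold changes of -0.01 and -0.09.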

How the data were processed

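Raw read counts per gene symbol were used as the authors deposited them, in 8 libraries. Trimmomatic 0.39, STAR 2.7.0a, featureCounts and build mm10 are named in the submitters' processing notes; for the counting step, neither settings nor annotation were found in the labels. The authors' deposited table gives log2 fold changes, p-values, a test score and a mean of normalised counts (a signal per gene). Its log2 values run opposite to KO over WT. Only its p-values are quoted.

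Genes passing filterByExpr (minimum count 10) were TMM-scaled and tested with the edgeR 4.0.16 quasi-likelihood test in R 4.3.3, Benjamini-Hochberg adjusted over 12507 genes at 0.05. A standard error is the log2 fold change over the root of F. DESeq2 1.42.0 and limma 3.58.1 were alternatives. The gene test and the exact permutation test (scipy 1.17.1) were tested on simulated data, and the trend removal (loess, span 0.3, added after the data were seen, 89.0% of tested genes with a length and GC value) was not. The 10 genes, lists and tests were chosen with earlier results of these data known. The text names the 10 genes whatever their result, called list members, genes in the ratios and the 5 nearest patterns, of which 1 is not reported here; other genes were named after their values were seen.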

Additional observations from a re-analysis of the deposited data

Results flagged for a closer look

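Among 30 sets of 4 libraries checked (10 genes and 5 ratios in each genotype), 4 held a library that stood apart from the other 3 of its genotype, by a gap to the nearest library above Dixon's 95% critical value for 4 values. Chance flags about 1 in 20 such sets. In WT replicate 1 H2-D1 was at 1741 CPM, with the other WT libraries at 1269 to 1293. In the same library Tap2 was at 128 CPM against 73.3 to 79.8, and Psmb8 at 315 CPM against 165 to 179. In KO replicate 3 Nlrc5 was at 30.6 CPM, with the other KO libraries at 49.9 to 51.5.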

How the results depend on the processing

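Of the 10 log2 fold changes, those of H2-K1, H2-T23, Tap1 and Tapbp kept their sign in all 17 alternatives. H2-T23 ranged from 0.31 to 0.52 (adjusted p 0.0270 to 0.477), Tap1 from 0.25 to 0.49 (adjusted p 0.0819 to 0.535) and Tapbp from 0.19 to 0.35 (adjusted p 0.116 to 0.659). The count of called members was 0 in all but 2 settings, where it was 1 (H2-T23): without WT replicate 1 and with length and GC trends removed. Over single libraries left out it ran from 0 to 1.

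Sign changes were all in uncalled values. Without WT replicate 1 the log2 fold changes of H2-D1, Tap2 and Psmb8 became 0.036, 0.22 and 0.17. H2-D1 became 0.0033 and Tap2 0.029 without KO replicate 2. Without KO replicate 3 Tap2 became 0.040 and Nlrc5 0.011. Psmb9 became -5.2e-05 without WT replicate 3 and -0.018 without KO replicate 1. Tap2 was 0.031 with limma-voom and 0.027 with the replicate block, and 0.14 with the trends removed, where B2m was -0.071. Over single libraries left out, the lowest and highest values were -0.16 and 0.036 for H2-D1, -0.091 and 0.22 for Tap2, -0.20 and 0.17 for Psmb8, -0.018 and 0.31 for Psmb9, and -0.20 and 0.011 for Nlrc5. The Psmb8 to Psmb5 difference of -0.0024 became 0.039 without WT replicate 4 and 0.11 without KO replicate 3, with a range of -0.10 to 0.11 over single libraries left out. The cause was not tested.

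All genes called numbered 201, and 399 with no filter, 511 with DESeq2, 471 with the trends removed and 103 to 484 with single libraries left out. The value was 484 without WT replicate 1 and 103 without WT replicate 2, and it was 120, 126 and 118 without KO replicates 1, 2 and 4. The replicate block called 260 genes and 0 members. Libraries of the same number had residual correlations of 0.29, 0.34, 0.07 and -0.03, and not every library correlated best with its own number, so the numbers were not taken as pairs. With a library left out, the exact test cannot pass for any ratio. Depth was at least 2984 counts per gene and genotype, so the widths of the 95% intervals reflect the spread between libraries more than counting error.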
